A study of Homo sapiens with 16 samples.

Results

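The genes described here are 38 genes of protein folding and quality control in the endoplasmic reticulum (ER), chosen as a named list of chaperones, disulfide isomerases, ER-associated degradation factors, stress sensors and translocation factors. All 38 were found by symbol among the 18227 genes of the 4 deposited tables. RNA sequencing was done on 16 libraries of 2 long-established human cell lines, A549 and H2023, both derived from non-small cell lung cancers. Each line was present as wild type and as ZC3H12A knockout, and each of these was kept either 3 days in normal culture or 7 days under stem-cell-enriching conditions (oncosphere culture). The product of ZC3H12A is Regnase-1, an RNase known for cleaving a set of mRNAs. The 8 groups are therefore wild-type and knockout A549 in normal culture, wild-type and knockout A549 in oncosphere culture, and the same 4 groups of H2023, with 2 libraries each. Culture type and days in culture change together in this design, so their effects cannot be told apart. The sample titles name 1 knockout clone per line, so replicate libraries of a knockout group all derive from that clone. The labels do not say whether the 2 libraries of a group came from separate cultures, so the p-values below measure only the spread between these libraries, which may be technical.

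Proteins that enter the ER are folded by chaperones such as HSPA5 (BiP), HSP90B1 (GRP94), calnexin and calreticulin, and their disulfide bonds are formed by protein disulfide isomerases. Chains that fail to fold are extracted to the cytosol and degraded, a route called ER-associated degradation. The load of unfolded protein is sensed by IRE1-alpha (gene ERN1), ATF6 and PERK (gene EIF2AK3). Activated IRE1-alpha splices XBP1 mRNA so that it encodes a potent transcription factor, and cleaved ATF6 is itself a transcription factor. Both factors raise the mRNAs of chaperones and degradation factors, while PERK slows translation by phosphorylating eIF2-alpha. Expression is given here in TPM (transcripts per kilobase scaled to a fixed total, which corrects for transcript length), and gene-level TPM does not show the splicing of XBP1 mRNA.

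The promoters of several of these genes carry the ER stress response elements through which ATF6 and XBP1 are known to act, and these stretches are shown because the response of the genes that carry them was not uniform. Promoters of 35 of the 38 genes were matched by symbol in RefSeq (build GRCh38.p14, 250 bases before to 50 bases after the transcription start). PDIA3, DERL1 and SEC24D had no entry. Exact matches on both strands were sought for the ER stress response element ERSE (CCAAT, then 9 bases of any kind, then CCACG), for ERSE-II (ATTGG, then 1 base of any kind, then CCACG) and for the unfolded protein response element UPRE (TGACGTGG). ERSE was found in 6 of the 35 promoters (HSPA5, HSP90B1, CALR, CANX, CRELD2 and XBP1), or 17.1%, against 22 of 27305 promoters in all, or 0.081%. ERSE-II was found in 3 of the 35 (SDF2L1, HYOU1 and HERPUD1), or 8.6%, against 0.055% of all promoters of this length. UPRE was found in HYOU1 and VCP, against 0.795% of all promoters. The members were listed as genes of the ATF6 and XBP1 arms. High shares of these elements therefore follow from the choice of genes and are not a test. In HYOU1 the UPRE overlaps 1 of its 2 ERSE-II matches. The stretches below run 5′ to 3′ on the strand of the gene, in RefSeq GRCh38.p14, with the matched elements in capitals. The matches of HSP90B1 and CANX are not shown because these stretches overlap an annotated exon by more than 30 bases. The stretches lie at chr22:28800588-28800636 (XBP1, minus strand), chr9:125241376-125241424 (HSPA5, minus strand), chr19:12938369-12938417 (CALR, plus strand), chr22:49918539-49918587 (CRELD2, plus strand), chr16:56932010-56932050 (HERPUD1, plus strand), chr22:21642099-21642139 (SDF2L1, plus strand) and chr11:119057259-119057408 (HYOU1, minus strand). A match is a description of these letters, not evidence of a bound site.
XBP1: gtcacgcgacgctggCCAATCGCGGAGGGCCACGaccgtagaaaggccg
HSPA5: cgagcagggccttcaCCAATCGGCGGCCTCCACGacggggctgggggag
CALR: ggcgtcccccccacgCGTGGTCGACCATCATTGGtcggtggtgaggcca
CRELD2: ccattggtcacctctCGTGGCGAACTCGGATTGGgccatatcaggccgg
HERPUD1: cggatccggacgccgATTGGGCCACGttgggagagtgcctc
SDF2L1: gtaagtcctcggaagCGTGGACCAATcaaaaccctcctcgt
HYOU1: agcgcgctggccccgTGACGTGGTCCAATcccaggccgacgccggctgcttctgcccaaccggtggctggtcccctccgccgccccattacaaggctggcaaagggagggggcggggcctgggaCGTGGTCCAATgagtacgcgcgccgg

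The targeted gene was examined first because it checks the labels. In A549 normal culture ZC3H12A measured 30.7 and 34.9 TPM in wild-type and 16.9 and 19.9 TPM in knockout libraries, a log2 fold change of -0.80 (SE 0.14, adjusted p = 0.0294). In the other 3 comparisons its mean was higher under the knockout label: 57.9 against 48.8 TPM in A549 oncospheres, 41.5 against 28.3 TPM in H2023 normal culture and 81.9 against 29.5 TPM in H2023 oncospheres, none of them past the limma threshold. The authors' deposited tables called those 3 differences higher, at log2 fold changes of 0.45, 0.55 and 1.48 with adjusted p-values of 0.0171, 0.008 and 3.26e-08. An mRNA level does not show whether the edited transcript encodes protein, and the libraries are called "labelled knockout" from here on. The epithelial keratins KRT8, KRT18 and KRT7 were at 630.2 TPM or more in every library, while EPCAM ranged from 0.37 to 51.0 TPM and KRT19 from 0.29 to 798 TPM. The fibroblast markers analysed summed to between 1.13 and 8.63 TPM and the single endothelial marker analysed to at most 2.76 TPM. The 15 mitochondrially encoded genes took 10.3% to 18.7% of TPM in normal and 19.5% to 25.6% in oncosphere culture. Sequencing depth per library cannot be read from TPM and is unknown here. The mean normalized counts of the authors' deposited tables summed to between 20453740 and 22760512 per table.

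Levels of the 38 genes spanned a wide range. Averaged over the 16 libraries, the highest were P4HB (793 TPM), which forms disulfide bonds, HSP90B1 (749 TPM), the ER form of HSP90, the lectin chaperones CALR (715 TPM) and CANX (623 TPM), and the glycoprotein isomerase PDIA3 (387 TPM). The lowest were the stress sensors ERN1 (10.3 TPM), EIF2AK3 (11.2 TPM) and ATF6 (13.2 TPM). HSPA5 varied least of the 38, from 244 to 390 TPM, a ratio of 1.60 between the highest and the lowest library. DNAJB9 had the widest ratio, 9.76, followed by XBP1 with 8.44, ERN1 with 7.24, PPP1R15A with 4.97 and HERPUD1 with 4.84. Summed over the 38 genes, the level ran from 5470 to 6412 TPM in A549 normal culture and from 7062 to 8497 TPM in A549 oncospheres. In H2023 it ran from 5509 to 6118 TPM in normal and from 5329 to 6739 TPM in oncosphere culture, so the cultures overlapped in this line and not in A549.

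**Figure D1:**
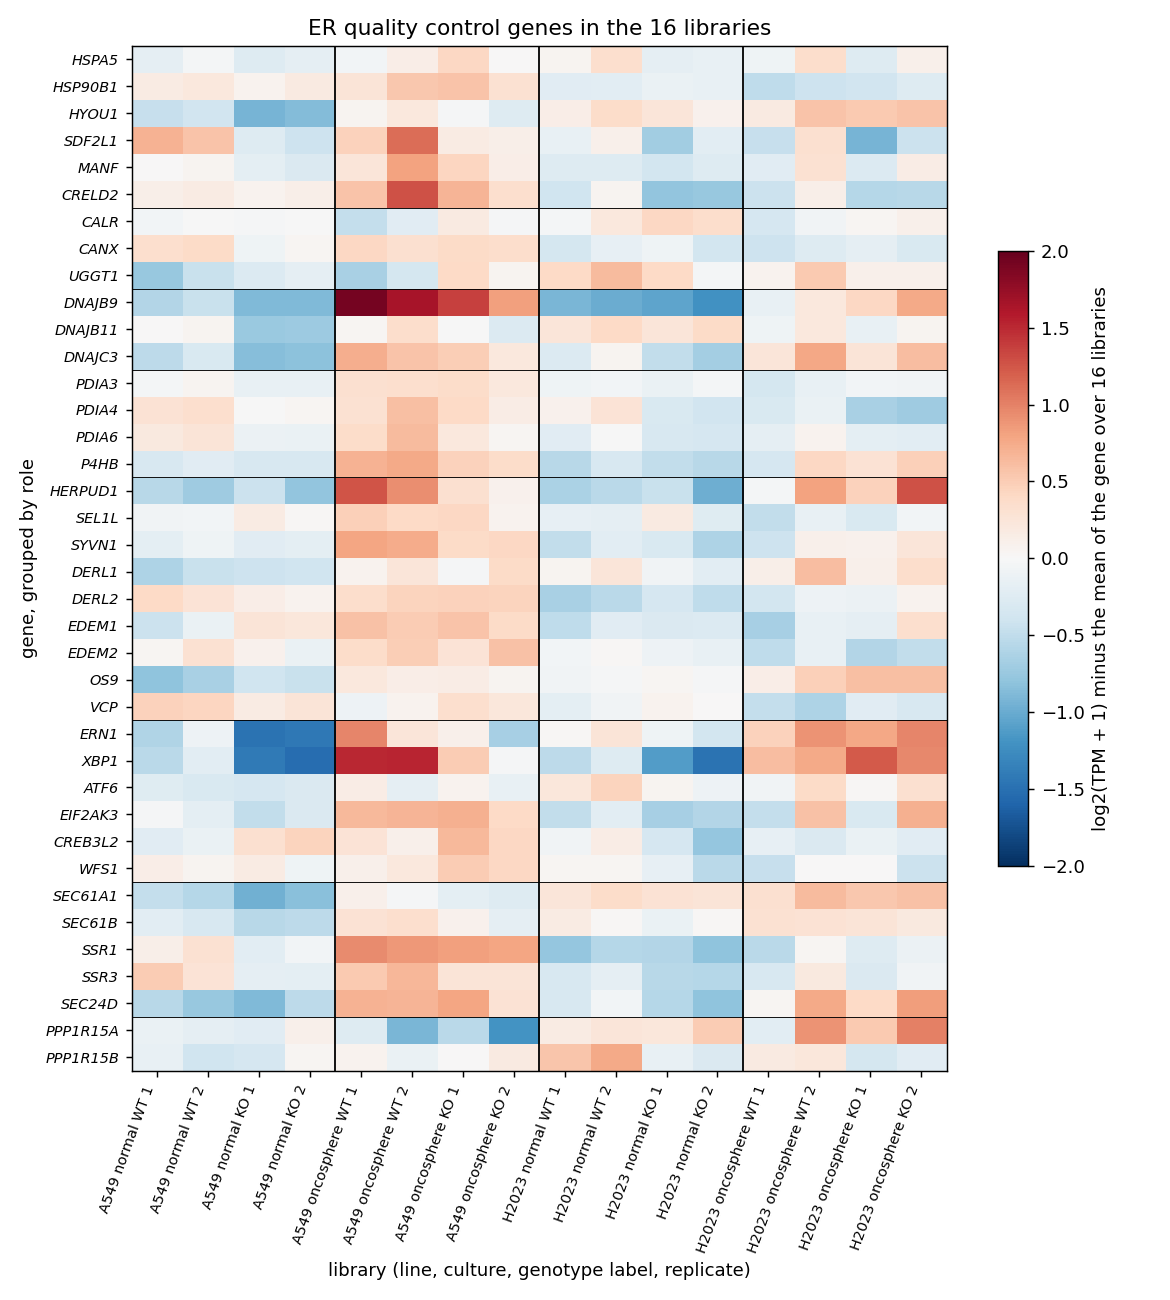
Heat map of the 38 genes (rows, grouped by role) in the 16 libraries (columns), coloured by log2(TPM + 1) minus the gene's mean over the 16 libraries. In both lines XBP1, DNAJB9 and HERPUD1 are below their means in normal libraries and above them in most oncosphere libraries. HSPA5, whose levels run from 244 to 390 TPM, stays near its mean.

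The first comparison asks how the ER genes differed between oncosphere and normal culture. In all comparisons below, groups said not to overlap are 2 libraries against 2. That is frequent with so few libraries, and it describes the values without testing them. In wild-type A549, 19 of the 38 genes rose and 1 fell, by limma on log2(TPM + 1) with an adjusted p under 0.05, where 19% of all 18227 genes rose and 21.6% fell. In the labelled-knockout libraries of A549, 20 rose and none fell, against 10.9% and 9.87% of all genes. The median log2 fold change of the 38 genes was 0.43 and 0.45, and that of all genes was -0.01 in both. Every one of the 38 had a mean of at least 1 TPM in these contrasts, and among all genes with such a mean the share that rose was 20.9% and 13.9%. The lists overlapped in 16 genes, which are 84.2% of the first and 80% of the second. In H2023 fewer passed: 2 rose and 3 fell in the wild type, against 3.96% and 17.4% of all genes, and 8 rose and none fell in the labelled-knockout libraries, against 7.68% and 19.2%. All 8 had also risen in both A549 contrasts, and XBP1 and DNAJB9 rose in all 4 contrasts.

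The balance of all genes was shifted in H2023, where the median log2 fold change of all genes was -0.18 in the wild type and -0.12 in the labelled-knockout libraries. Of the genes called there, 18.5% and 28.6% were higher, against 43.2% and 45.2% once each library was centred on its median. After centring, the 38 genes had medians of 0.28 and 0.41, and 5 and 14 of them rose with none lower. Of all 18227 genes, 1187 and 2031 rose and 1563 and 2464 fell after centring. The mitochondrial share rose with the culture, and its part in the result was measured by leaving those genes out and rescaling. Without them 23 and 22 members rose in A549 and 5 and 14 in H2023, and none fell. Of all genes, 4166 and 2290 rose and 3081 and 1498 fell in A549. In H2023 1022 and 2018 of all genes rose and 1263 and 1966 fell. The share of higher calls among all genes was 57.5%, 60.5%, 44.7% and 50.7%, where it had been 46.8% and 52.5% in A549 before. The leukocyte markers analysed (CD68, CD14 and LYZ, 3 of the 4 listed) summed to 245 and 151 TPM in A549 wild-type oncospheres against 58.9 and 45.5 TPM in normal culture, most of it CD68. Their sum was 79.1 and 58.6 TPM in the labelled-knockout A549 oncospheres against 48.0 and 35.3 TPM in normal culture. In H2023 it was 31.4 to 133 TPM in oncospheres and 32.8 to 40.3 TPM in normal culture, and the part of these markers in the result was not tested. These sums are levels of 3 genes in cultures of cell lines and were not read as leukocyte content. In such bulk libraries fewer cells of a kind and less RNA per cell cannot be told apart.

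**Figure D2:**
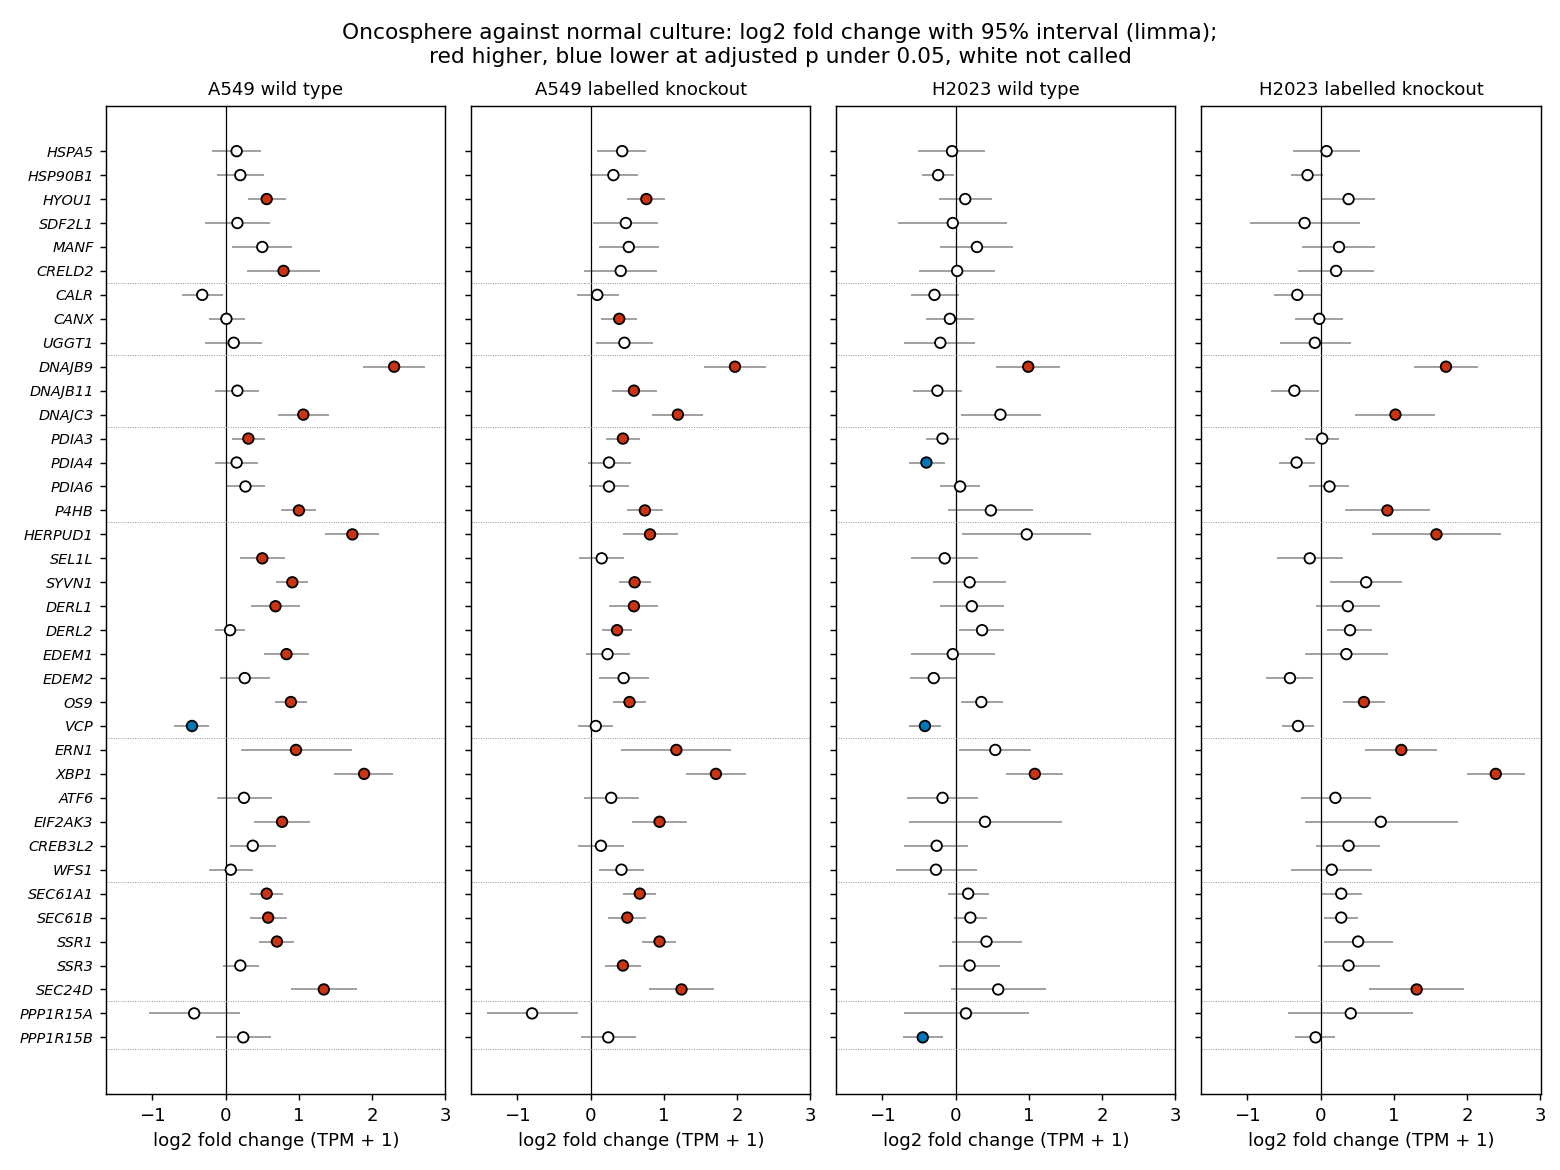
Log2 fold change on the log2(TPM + 1) scale of oncosphere against normal culture (horizontal axis) for the 38 genes (rows, grouped by role) in the 4 contrasts, with 95% intervals from limma; filled points passed an adjusted p under 0.05. XBP1 and DNAJB9 lie to the right of 0 with filled points in all 4 panels.

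XBP1, the transcription factor made by IRE1-alpha splicing, lies on the minus strand of chromosome 22 (GRCh38, chr22:28794555-28800597 in GENCODE v29). In wild-type A549 it measured 85.3 and 106 TPM in normal and 353 and 357 TPM in oncosphere culture, a log2 fold change of 1.89 (SE 0.18, adjusted p = 0.000171). In the labelled-knockout A549 libraries it went from 45.98 and 42.3 to 176 and 122 TPM, a change of 1.71 (SE 0.18, adjusted p = 0.000713). Every oncosphere library was above every normal library of its genotype. In wild-type H2023 XBP1 measured 85.95 and 104 TPM in normal and 191 and 209.6 TPM in oncosphere culture, a change of 1.08 (SE 0.16, adjusted p = 0.00822). In the labelled-knockout H2023 libraries it measured 56.6 and 43.9 and then 292 and 242 TPM, a change of 2.39 (SE 0.16, adjusted p = 0.000541), the largest of the 4. Ordered by group mean, XBP1 was highest in A549 wild-type oncospheres (355 TPM), then H2023 labelled-knockout oncospheres (267 TPM), H2023 wild-type oncospheres (200.5 TPM) and A549 labelled-knockout oncospheres (149 TPM). The 4 normal-culture groups followed at 95.9 (A549 wild type), 94.8 (H2023 wild type), 50.3 (H2023 labelled knockout) and 44.1 TPM (A549 labelled knockout). Neighbours in that order did not overlap, except the 2 wild-type and the 2 labelled-knockout groups of normal culture.

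The other sensors differed among themselves. ERN1, the gene of IRE1-alpha, measured 5.62 and 8.32 TPM in normal and 18.8 and 10.9 TPM in oncosphere culture of wild-type A549, a log2 fold change of 0.96 (SE 0.33, adjusted p = 0.0461), and went from 2.59 and 2.73 to 9.69 and 5.35 TPM in the labelled-knockout libraries, a change of 1.17 (SE 0.33, adjusted p = 0.0383). In H2023 it rose in the labelled-knockout libraries, from 8.39 and 6.79 to 16.1 and 18.7 TPM, by 1.10 (SE 0.20, adjusted p = 0.0106), and the wild-type change was 0.54 (SE 0.20, adjusted p = 0.107). EIF2AK3, the gene of PERK, measured 10.3 and 8.99 TPM in normal and 16.9 and 17.4 TPM in oncosphere culture of wild-type A549, a change of 0.77 (SE 0.16, adjusted p = 0.00683), and 7.17 and 8.40 against 17.8 and 14.1 TPM in the labelled-knockout libraries, a change of 0.94 (SE 0.16, adjusted p = 0.00563). In a fit of all 16 libraries EIF2AK3 no longer passed in either A549 contrast (adjusted p = 0.0847 and 0.0632). The A549 cultures overlapped for neither ERN1 nor EIF2AK3. ATF6 did not pass in any of the 4 contrasts, with log2 fold changes of 0.25 and 0.28 in A549 and -0.18 and 0.20 in H2023. WFS1, an ER membrane protein mutated in Wolfram syndrome, and CREB3L2, an ER-anchored transcription factor related to ATF6, did not pass in any of them either. Of the 6 sensors and factors, 3 rose in each A549 contrast, 1 in wild-type H2023 and 2 in the labelled-knockout H2023 libraries.

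The J-domain co-chaperones, which deliver clients to HSPA5 and stimulate its ATPase, had the largest median log2 fold change of any role in each of the 4 contrasts (1.06, 1.19, 0.61 and 1.02, in the order A549 wild type and labelled knockout, then H2023). DNAJB9 (ERdj4, on chromosome 7, chr7:108569568-108574850, plus strand) measured 11.8 and 13.2 TPM in normal and 71.6 and 59.4 TPM in oncosphere culture of wild-type A549, a log2 fold change of 2.30 (SE 0.18, adjusted p = 9.8e-05). In the labelled-knockout A549 libraries it went from 9.52 and 9.51 to 48.9 and 33.3 TPM, by 1.97 (SE 0.18, adjusted p = 0.000502). In H2023 it went from 9.22 and 8.78 to 16.5 and 21.4 TPM in the wild type, by 0.99 (SE 0.18, adjusted p = 0.0138), and from 8.37 and 7.34 to 24.8 and 31.6 TPM in the labelled-knockout libraries, by 1.71 (SE 0.18, adjusted p = 0.00176). No oncosphere library overlapped a normal one of its line and genotype. DNAJC3 (p58IPK), which also restrains PERK, measured 11.7 and 13.8 TPM against 29.2 and 26.1 TPM in wild-type A549, a change of 1.06 (SE 0.15, adjusted p = 0.000988), and 9.10 and 9.28 against 24.5 and 20.1 TPM in the labelled-knockout libraries, a change of 1.19 (SE 0.15, adjusted p = 0.00147). In H2023 DNAJC3 passed in the labelled-knockout libraries, from 11.98 and 10.4 to 20.8 and 26.9 TPM, by 1.02 (SE 0.23, adjusted p = 0.0206), and its wild-type libraries went from 14.2 and 17.9 to 20.5 and 30.1 TPM, a change of 0.61 (SE 0.23, adjusted p = 0.104). DNAJB11 (ERdj3), a secreted co-chaperone, rose in the labelled-knockout A549 libraries alone of the 4 contrasts, from 51.6 and 52.5 to 86.8 and 71.9 TPM, by 0.59 (SE 0.13, adjusted p = 0.0168). Its A549 wild-type cultures overlapped, at 87.9 and 90.6 and at 89.2 and 111 TPM.

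Among the 6 ER chaperones and their cofactors, 2 rose in wild-type A549, 1 in the labelled-knockout A549 libraries and none in H2023. HYOU1 (GRP170), the nucleotide exchange factor of HSPA5, measured 69.2 and 73.4 TPM in normal and 99.7 and 112 TPM in oncosphere culture of wild-type A549, a log2 fold change of 0.56 (SE 0.11, adjusted p = 0.00535). In the labelled-knockout libraries it went from 49.9 and 52.2 to 94.5 and 80.2 TPM, by 0.76 (SE 0.11, adjusted p = 0.00287). CRELD2, a secreted ER stress protein, passed in wild-type A549, from 33.4 and 34.6 to 46.3 and 76.1 TPM, by 0.79 (SE 0.22, adjusted p = 0.0212), and stood at 0.43 (adjusted p = 0.0845) without oncosphere library 2. HSPA5, the chaperone most often used as the marker of ER stress, did not pass in any culture contrast. It measured 258 and 285 TPM in normal and 282 and 320.5 TPM in oncosphere culture of wild-type A549, groups that overlapped, with a log2 fold change of 0.15 (SE 0.14, adjusted p = 0.448) and a 95% interval of -0.18 to 0.48. In the labelled-knockout A549 libraries it measured 245 and 260.1 against 389.6 and 295 TPM, a change of 0.43 (SE 0.14, adjusted p = 0.0734). HSP90B1, SDF2L1 and MANF, a secreted factor that binds HSPA5, did not pass in any culture contrast either.

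The lectin chaperones, which hold glycoproteins during folding, changed little in level. CANX rose in the labelled-knockout A549 libraries, from 573 and 629 to 793 and 778 TPM, by 0.39 (SE 0.11, adjusted p = 0.0358), and measured 766 and 791 and 811 and 759 TPM in the wild type, where the cultures overlapped. CALR and UGGT1, the sensor that reglucosylates unfolded glycoproteins, did not pass in any of the 4 contrasts. Of the disulfide isomerases, P4HB stood out. It measured 602 and 644 TPM in normal and 1218 and 1273 TPM in oncosphere culture of wild-type A549, a log2 fold change of 1.00 (SE 0.11, adjusted p = 0.000279), and 601 and 600.3 against 1037 and 978 TPM in the labelled-knockout libraries, a change of 0.74 (SE 0.11, adjusted p = 0.00237). In the labelled-knockout H2023 libraries it went from 533 and 514 to 921 and 1051 TPM, by 0.91 (SE 0.24, adjusted p = 0.036). PDIA3, which works with the lectin chaperones, rose from 374 and 396 to 476 and 482 TPM in wild-type A549, by 0.31 (SE 0.10, adjusted p = 0.0347), and from 344 and 346 to 494 and 443 TPM in the labelled-knockout libraries, by 0.44 (SE 0.10, adjusted p = 0.0169). PDIA6 did not pass in any contrast. PDIA4 fell in wild-type H2023, from 238 and 272 to 182 and 205 TPM, by -0.40 (SE 0.10, adjusted p = 0.038), and after centring on the library medians it stood at -0.21 and no longer passed.

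Degradation genes, the role with the most members, had 6 of 9 higher and 1 lower in wild-type A549, where 19% of all genes rose and 21.6% fell. Higher there were also 4 of 5 translocation and export genes and 2 of 3 J-domain co-chaperones, so degradation did not lead by share. HERPUD1, which scaffolds the retrotranslocation complex (chromosome 16, chr16:56932048-56944863, plus strand), measured 60.3 and 54.4 TPM in normal and 215 and 171 TPM in oncosphere culture of wild-type A549, a log2 fold change of 1.73 (SE 0.16, adjusted p = 0.000171). In the labelled-knockout A549 libraries it went from 66.3 and 51.4 to 112 and 95.1 TPM, by 0.81 (SE 0.16, adjusted p = 0.0103), which did not pass in a fit of all 16 libraries (adjusted p = 0.0679). In H2023 the oncosphere libraries were far apart, at 87.5 and 157 TPM in the wild type, where the change was 0.97 (SE 0.37, adjusted p = 0.107), and at 123 and 217 TPM in the labelled-knockout libraries, where the change from 65.5 and 44.8 TPM was 1.58 (SE 0.37, adjusted p = 0.0232). SYVN1 (HRD1), the ubiquitin ligase of this route, rose from 32.1 and 34.98 to 65.1 and 62.5 TPM in wild-type A549, by 0.91 (SE 0.10, adjusted p = 0.000276), and from 31.6 and 32.5 to 48.7 and 49.7 TPM in the labelled-knockout libraries, by 0.60 (SE 0.10, adjusted p = 0.00387). OS9, a lectin that hands misfolded glycoproteins to SYVN1, went from 95.9 and 107 to 195 and 183 TPM and from 127 and 123 to 186 and 175 TPM in these A549 pairs, by 0.89 (SE 0.10, adjusted p = 0.000302) and 0.53 (SE 0.10, adjusted p = 0.0068). It also rose in the labelled-knockout H2023 libraries, from 173 and 165 to 255 and 257 TPM, by 0.59 (SE 0.12, adjusted p = 0.014). For each of these 3 genes the A549 cultures did not overlap.

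The remaining degradation genes moved less. SEL1L, the partner of SYVN1, rose in wild-type A549 from 30.2 and 30.6 to 44.8 and 42.3 TPM, by 0.50 (SE 0.13, adjusted p = 0.0184), and its labelled-knockout cultures overlapped. EDEM1, which trims mannose from misfolded glycoproteins, rose there from 15.4 and 19.03 to 31.9 and 30.5 TPM, by 0.83 (SE 0.13, adjusted p = 0.00192). DERL1, a derlin of the retrotranslocation channel, rose from 48.6 and 55.3 to 79.1 and 88.8 TPM in wild-type A549, by 0.68 (SE 0.14, adjusted p = 0.00665), and from 55.9 and 57.04 to 74.1 and 98.1 TPM in the labelled-knockout libraries, by 0.59 (SE 0.14, adjusted p = 0.0239). Its relative DERL2 passed in the labelled-knockout A549 libraries, from 82.3 and 78.4 to 104 and 102 TPM, by 0.36 (SE 0.09, adjusted p = 0.0276). VCP (p97), the cytosolic ATPase that pulls chains from the membrane, fell in both wild types. It went from 353 and 346 to 239 and 269 TPM in wild-type A549, by -0.46 (SE 0.10, adjusted p = 0.00762), and from 223 and 243 to 183 and 166 TPM in wild-type H2023, by -0.42 (SE 0.09, adjusted p = 0.024). Without the mitochondrially encoded genes VCP stood at -0.32 (adjusted p = 0.0503) in A549, and in H2023 it stood at -0.17 without them and at -0.22 after centring, past the threshold in neither. EDEM2 did not pass in any culture contrast.

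All 5 translocation and export genes rose in the labelled-knockout A549 libraries and 4 in the wild type. SEC61A1, the pore of the translocon, measured 126 and 117 TPM in normal and 188 and 172 TPM in oncosphere culture of wild-type A549, a log2 fold change of 0.56 (SE 0.10, adjusted p = 0.00288), and 89.3 and 98.4 against 153 and 146 TPM in the labelled-knockout libraries, a change of 0.67 (SE 0.10, adjusted p = 0.00275). SEC61B, its small subunit, went from 207 and 192 to 295 and 304 TPM and from 163 and 167 to 255 and 212 TPM, by 0.58 (SE 0.11, adjusted p = 0.00402) and 0.50 (SE 0.11, adjusted p = 0.0159). SSR1, a subunit of the translocon-associated protein complex, went from 83.3 and 94.99 to 148 and 141 TPM and from 66.1 and 74.2 to 136 and 134 TPM, by 0.70 (SE 0.10, adjusted p = 0.00133) and 0.94 (SE 0.10, adjusted p = 0.000922). None of these A549 cultures overlapped. SSR3, another subunit of that complex, rose in the labelled-knockout libraries from 137 and 135 to 184 and 185 TPM, by 0.44 (SE 0.11, adjusted p = 0.0219), which did not pass in a fit of all 16 libraries (adjusted p = 0.0505). SEC24D, a cargo adaptor of COPII vesicles, had the largest change of this role, from 13.6 and 11.7 to 33.6 and 33.5 TPM in wild-type A549, by 1.34 (SE 0.19, adjusted p = 0.00115), and from 10.6 and 13.9 to 35.9 and 25.1 TPM in the labelled-knockout libraries, by 1.24 (SE 0.19, adjusted p = 0.00366). In H2023 it went from 13.4 and 11.3 to 27.3 and 37.4 TPM in the labelled-knockout libraries, by 1.31 (SE 0.27, adjusted p = 0.0156), and from 16.2 and 19.6 to 21.01 and 35.2 TPM in the wild type, a change of 0.58 (SE 0.27, adjusted p = 0.171).

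The subunits that return eIF2-alpha to its unphosphorylated state did not follow the others. PPP1R15A (GADD34), the inducible subunit, did not pass in any contrast and ranged from 9.66 to 48.0 TPM. PPP1R15B, the constitutive subunit, fell in wild-type H2023 from 42.4 and 48.9 to 32.4 and 33.6 TPM, by -0.45 (SE 0.11, adjusted p = 0.0351), and stood at -0.26 after centring, no longer past the threshold.

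Of the 9 genes with ERSE or ERSE-II in their promoter, 4 rose in wild-type A549 (XBP1, HERPUD1, CRELD2 and HYOU1), and 12 of the 26 promoters without either element belonged to genes that rose. Under the knockout label 3 of the 9 and 3 of the 26 were lower in A549 normal culture, and 2 of the 9 and 0 of the 26 in A549 oncospheres. No test of a difference between these promoter groups was run. Among the 7 genes whose stretches are printed above, log2 fold changes of oncosphere against normal culture in wild-type A549 ran from -0.32 for CALR to 1.89 for XBP1. DNAJB9, with the largest change of the 38 in that contrast, had no exact match in this window, which says only that these letters are not there. Its window before the RefSeq start, chr7:108569624-108569873, lies inside the gene span given above. Bases before that span were therefore not searched. The windows of DNAJB11, ERN1, DERL2, PDIA6, SSR1 and VCP, all among the 26, also lie inside their GENCODE v29 gene spans.

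Leaving out 1 library moved these counts. Each such fit left 1 library in a group, and fewer of all genes were called in every one of them than in the full fits. A loss of calls is therefore not particular to the members. In wild-type A549 between 15 and 18 members were called. In the labelled-knockout A549 contrast 12, 11 and 12 members were called without normal-culture library 1, normal-culture library 2 or oncosphere library 1, and 17 without oncosphere library 2. In wild-type H2023 the count was 1 without either normal-culture library, 2 without oncosphere library 2 and 6 without oncosphere library 1. In the labelled-knockout H2023 contrast it was 3 and 2 without normal-culture library 1 or 2, 2 without oncosphere library 2 and 6 without oncosphere library 1. Single calls were lost in every one of the 4 fits for PDIA3 in wild-type A549, for CANX, DERL2 and SSR3 in labelled-knockout A549, for PDIA4 and PPP1R15B in wild-type H2023, and for P4HB and OS9 in labelled-knockout H2023. Calls were lost in 3 of the 4 fits for CRELD2, SEL1L and ERN1 in wild-type A549, for PDIA3, DNAJB11, DERL1, ERN1 and SEC61B in labelled-knockout A549, for DNAJB9 and VCP in wild-type H2023, and for DNAJC3, HERPUD1 and SEC24D in labelled-knockout H2023. Calls were lost in 1 or 2 fits for DERL1 and VCP in wild-type A549, HERPUD1 and OS9 in labelled-knockout A549 and ERN1 in labelled-knockout H2023. XBP1 passed in all 16 of these fits, with log2 fold changes of 0.94 to 2.57. The libraries of some groups stood apart for these genes. Library 2 was higher than library 1 for 35 of 38 members in wild-type H2023 oncospheres, with a median difference of 0.41 on the log2 scale, where all genes had a median of -0.02. It was also higher for 35 of 38 members in wild-type H2023 normal culture, with a median of 0.20, and higher for 5 of 38 in labelled-knockout A549 oncospheres, with a median of -0.23, where all genes had a median of 0 in both.

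The second comparison asks how the labelled-knockout libraries differed from wild type within a line and culture. In A549 normal culture 6 members fell and none rose by limma, where 6.28% of all genes fell and 4.53% rose, and 28 of the 38 had a negative sign. In A549 oncospheres 2 members fell and none rose, against 7.2% and 6.04% of all genes. In H2023 no gene of the 18227 (0%) passed limma in normal culture or in oncospheres. Before adjustment, p was under 0.05 for 10 members and 3314 genes in H2023 normal culture and for 3 members and 2828 genes in H2023 oncospheres. The authors' deposited tables, whose columns carry DESeq2's names, called more: 4 members higher and 8 lower in A549 normal culture, 1 and 6 in A549 oncospheres, 0 and 9 in H2023 normal culture, and 0 and 2 in H2023 oncospheres. Of all genes with an adjusted p-value in the authors' deposited tables, 10.9%, 11.4%, 6.97% and 2.85% were lower and 11.2%, 9.29%, 3.84% and 2.22% were higher. The median log2 fold change of the 38 genes by limma was -0.17, -0.17, -0.13 and 0.09 in the same order, against -0.03, 0.03, 0.01 and 0.06 for all genes.

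**Figure D3:**
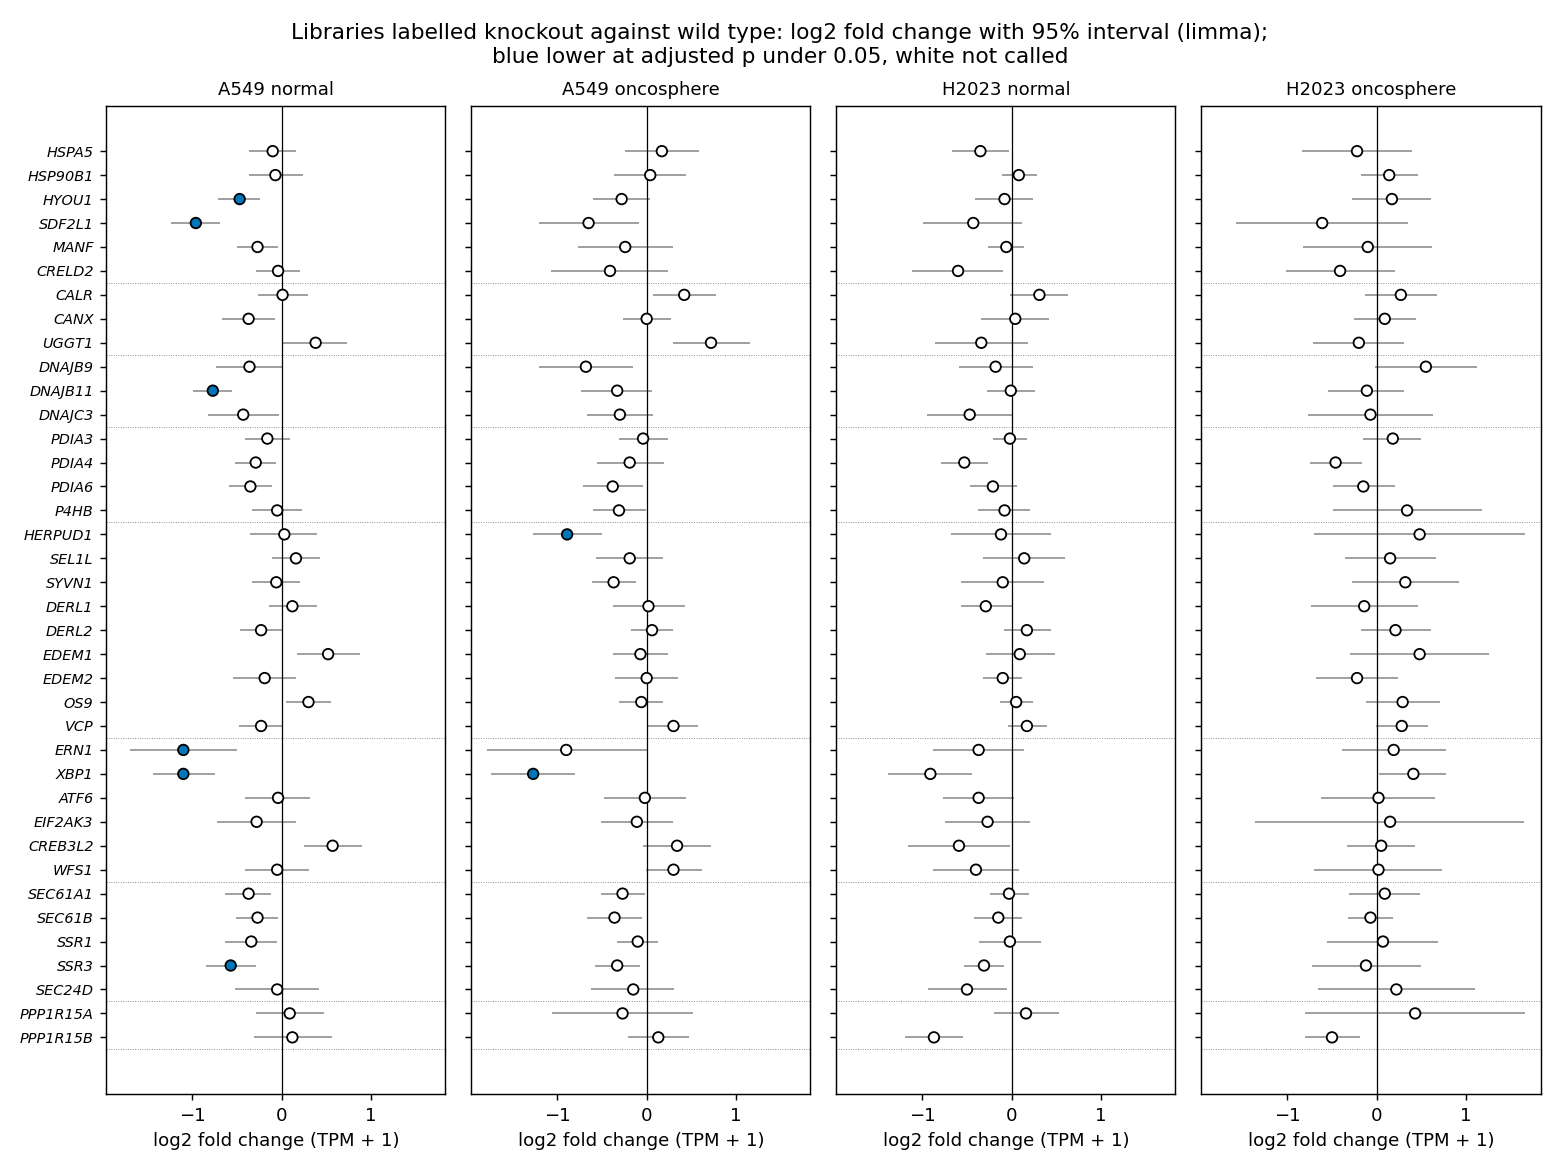
Log2 fold change on the log2(TPM + 1) scale of labelled-knockout against wild-type libraries (horizontal axis) for the 38 genes (rows, grouped by role) in the 4 pairs of groups, with 95% intervals from limma; blue points passed an adjusted p under 0.05 and lay below 0. XBP1 is blue in both A549 panels, at -1.10 and -1.27, and no gene is filled in H2023.

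XBP1 was the member that limma called lower in both A549 cultures, and the authors' deposited tables called XBP1, ERN1 and SDF2L1 lower in both. In normal culture XBP1 measured 85.3 and 106 TPM in wild-type and 45.98 and 42.3 TPM in labelled-knockout A549, a log2 fold change of -1.10 (SE 0.14, adjusted p = 0.0154). In oncospheres it measured 353 and 357 against 176 and 122 TPM, a change of -1.27 (SE 0.19, adjusted p = 0.0154), and neither pair of groups overlapped. In H2023 normal culture the libraries stood at 85.95 and 104 against 56.6 and 43.9 TPM, a change of -0.91 (SE 0.17, adjusted p = 0.16), and in H2023 oncospheres at 191 and 209.6 against 292 and 242 TPM, where the sign was positive, 0.41 (SE 0.13, adjusted p = 0.303). The authors' deposited table called XBP1 lower in H2023 normal culture, at -0.92 with an adjusted p-value of 6.09e-07, and not in H2023 oncospheres, at 0.33 with 0.427. ERN1, which splices XBP1, fell in A549 normal culture from 5.62 and 8.32 to 2.59 and 2.73 TPM, by -1.10 (SE 0.24, adjusted p = 0.0474). In A549 oncospheres it measured 18.8 and 10.9 against 9.69 and 5.35 TPM, a change of -0.90 (SE 0.35, adjusted p = 0.164), which the authors' deposited table called lower, at -1.08 with an adjusted p-value of 0.00117.

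The other 4 genes lower in A549 normal culture came from 3 roles. SDF2L1, an ER cofactor that binds HSPA5 and its co-chaperones, measured 75.8 and 69.4 TPM in wild-type and 38.97 and 34.6 TPM in labelled-knockout libraries, a log2 fold change of -0.96 (SE 0.11, adjusted p = 0.0133). DNAJB11, with which SDF2L1 forms a complex, measured 87.9 and 90.6 against 51.6 and 52.5 TPM, a change of -0.77 (SE 0.09, adjusted p = 0.0134). HYOU1 measured 69.2 and 73.4 against 49.9 and 52.2 TPM, a change of -0.47 (SE 0.09, adjusted p = 0.0393). In each of these 3 every labelled-knockout library was below every wild-type library, and the same held for SSR3, at 219 and 186 against 137 and 135 TPM and a change of -0.57 (SE 0.11, adjusted p = 0.0395). HYOU1 and ERN1 no longer passed without the mitochondrially encoded genes (adjusted p = 0.0648 and 0.0597). CREB3L2 stood higher, at 13.2 and 14.2 against 19.96 and 21.8 TPM, and missed the threshold, at 0.57 (SE 0.13, adjusted p = 0.0519). The authors' deposited table called CREB3L2 higher, at 0.69 with an adjusted p-value of 1.48e-05. It also called EDEM1, UGGT1 and OS9 higher, and 8 members lower. HSPA5 measured 258 and 285 against 245 and 260.1 TPM, groups that overlapped, with a 95% interval for the log2 fold change of -0.37 to 0.16. The summed epithelial markers moved with the label in this pair, at 9346 and 9175 TPM in wild-type and 5009 and 2571 TPM in labelled-knockout libraries, with KRT19 and EPCAM among them. They stood at 6666 and 7544 against 5659 and 7825 TPM in A549 oncospheres, at 9397 and 8749 against 13032 and 12326 TPM in H2023 normal culture and at 4327 and 4565 against 7766 and 8273 TPM in H2023 oncospheres. The sum was thus higher under the knockout label in H2023 and lower in oncosphere than in normal culture there, and its part in any of these comparisons was not tested.

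In A549 oncospheres HERPUD1 fell from 215 and 171 TPM in wild-type to 112 and 95.1 TPM in labelled-knockout libraries, a log2 fold change of -0.89 (SE 0.15, adjusted p = 0.0229). The groups did not overlap. DNAJB9 measured 71.6 and 59.4 against 48.9 and 33.3 TPM and did not pass, at -0.68 (SE 0.21, adjusted p = 0.0956). UGGT1 stood higher, at 25.8 and 31.9 against 54.3 and 42.5 TPM, and did not pass, at 0.72 (SE 0.17, adjusted p = 0.0543). In the authors' deposited table DNAJB9 was called lower, at -0.71 with an adjusted p-value of 0.0119, and UGGT1 higher, at 0.68 with 0.000589. SDF2L1, at -0.72 with 0.0278, and SYVN1, at -0.46 with 0.00851, were also called lower in the authors' deposited table. The summed leukocyte markers given above were also lower in the labelled-knockout libraries of this pair, and their part was not tested. In H2023 the members with the largest differences also missed the limma threshold. PPP1R15B measured 42.4 and 48.9 TPM in wild-type and 25.6 and 23.2 TPM in labelled-knockout normal culture, groups that did not overlap, with a change of -0.87 (SE 0.12, adjusted p = 0.126). In H2023 oncospheres it measured 32.4 and 33.6 against 22.1 and 24.2 TPM, a change of -0.50 (SE 0.11, adjusted p = 0.233).

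PPP1R15B and PDIA4 were the members that the authors' deposited tables called lower in both H2023 cultures. PPP1R15B had log2 fold changes of -0.90 and -0.60 there, with adjusted p-values of 4.48e-10 and 0.0281. PDIA4, a disulfide isomerase, had -0.54 and -0.57, with 0.000159 and 0.041. By library PDIA4 measured 238 and 272 TPM in wild-type and 182 and 171 TPM in labelled-knockout normal culture, and 182 and 205 against 143 and 137 TPM in oncospheres, without overlap in either. CRELD2 and CREB3L2 were among the 5 members with the largest limma changes in H2023 normal culture. CRELD2 measured 23.2 and 32.1 against 17.4 and 17.8 TPM, a change of -0.60 (SE 0.18, adjusted p = 0.235), and CREB3L2 14.9 and 17.5 against 12.2 and 8.78 TPM, a change of -0.59 (SE 0.21, adjusted p = 0.266). The authors' deposited table called both lower, at -0.61 and -0.62 with adjusted p-values of 0.0442 and 0.00473. In H2023 oncospheres the members with the largest absolute changes besides PPP1R15B were SDF2L1, DNAJB9, HERPUD1 and EDEM1. SDF2L1 measured 33.6 and 58.6 TPM in wild-type and 24.1 and 34.5 TPM in labelled-knockout libraries, groups that overlapped, with a change of -0.61 (SE 0.34, adjusted p = 0.466). DNAJB9 measured 16.5 and 21.4 against 24.8 and 31.6 TPM, a change of 0.55 (SE 0.20, adjusted p = 0.327), and these groups did not overlap. EDEM1 measured 12.9 and 18.8 against 18.4 and 26.7 TPM, a change of 0.48 (SE 0.28, adjusted p = 0.473), and HERPUD1 changed by 0.48 (SE 0.42, adjusted p = 0.621), both with overlapping groups.

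A limma comparison of genotype labels with any 1 of its 4 libraries left out has 1 residual degree of freedom. Such a fit cannot decide whether a member passes, so only the size of the change is given. Over those fits in A549 the log2 fold change of XBP1 stayed between -1.25 and -0.94 in normal culture and between -1.54 and -1.01 in oncospheres.

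**Figure D4:**
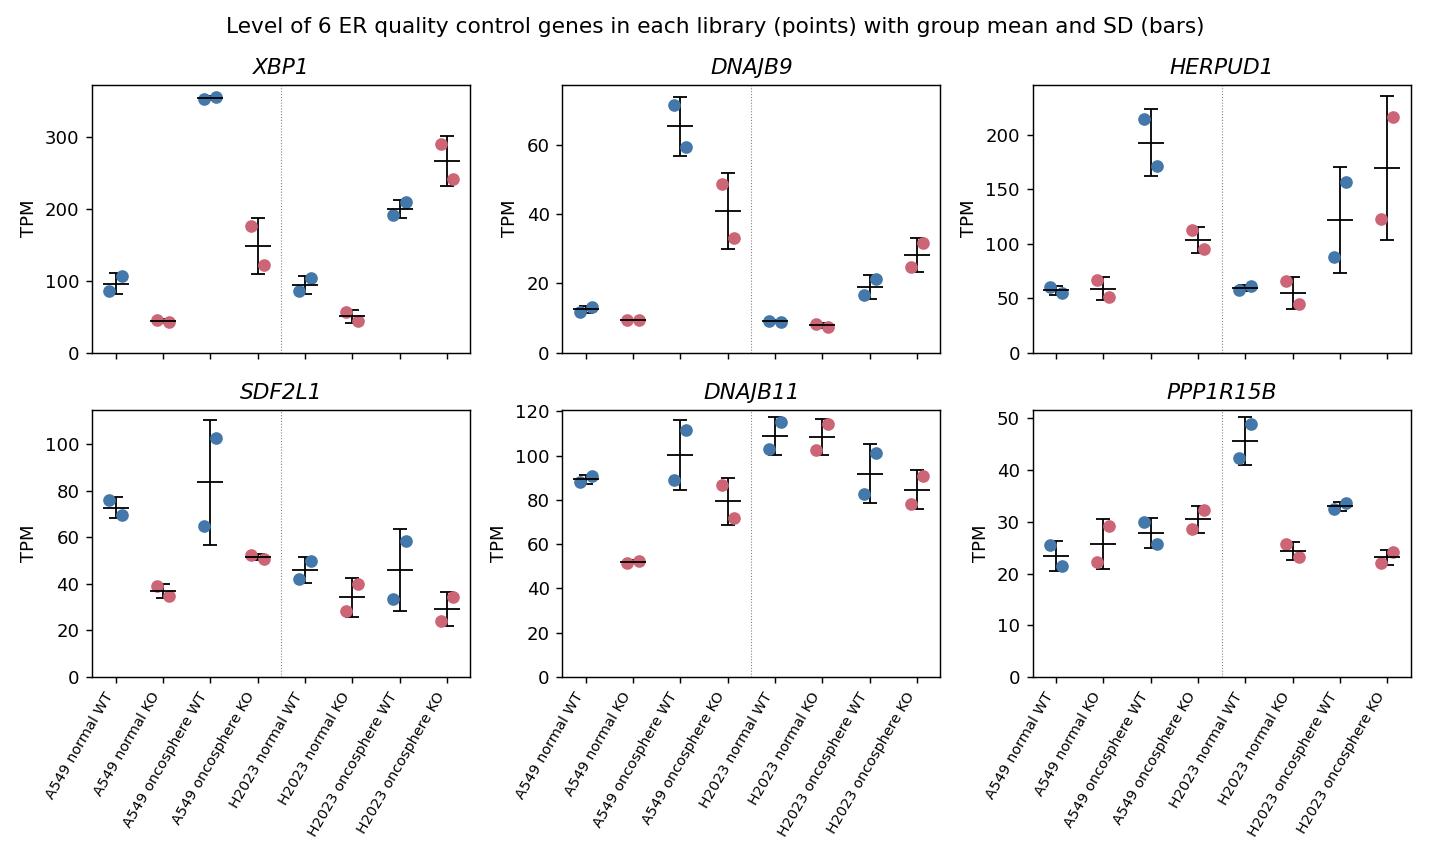
TPM of XBP1, DNAJB9, HERPUD1, SDF2L1, DNAJB11 and PPP1R15B (vertical axes, linear from 0) in the 8 groups (horizontal axis), with a point per library, a horizontal mark at the mean and bars of 1 SD (n = 2). XBP1 in oncospheres is higher in wild-type than in labelled-knockout libraries in A549 (353 and 357 against 176 and 122 TPM) and lower in H2023 (191 and 210 against 292 and 242 TPM).

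Whether the difference between genotype labels itself changed was tested with interaction terms. Between cultures of A549 no member passed by limma, where 6.65% of all genes did. At an unadjusted p under 0.05 stood 8 of the 38 members and 4604 genes, or 25.3% of all genes. The nearest to the threshold were HERPUD1, at -0.91 (SE 0.23, adjusted p = 0.0544), and VCP, at 0.53 (SE 0.14, adjusted p = 0.0659), followed by EDEM1, at -0.60 (SE 0.19, adjusted p = 0.0987). DNAJB11, at 0.44 (SE 0.19, adjusted p = 0.196), and CALR, at 0.41 (SE 0.18, adjusted p = 0.192), were next in size. XBP1 differed by -0.18 (SE 0.25, adjusted p = 0.703) between the A549 cultures, with a 95% interval of -0.75 to 0.40. In H2023 no gene passed, 3 members and 1294 genes stood at an unadjusted p under 0.05, and the largest member difference was that of XBP1, at 1.31 (SE 0.23, adjusted p = 0.512). DNAJB9, SEC24D, CREB3L2 and HERPUD1 followed, with 0.73, 0.72, 0.64 and 0.60, and 33 of the 38 members had a positive sign, where the median was 0.19 for the members and 0.06 for all genes.

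Between the lines, 3 members passed in normal culture and 1 in oncospheres, where 6.89% of all genes were higher and 5.4% lower in normal culture and 5.83% and 4.02% in oncospheres. In oncospheres XBP1 passed: the H2023 difference minus the A549 difference was 1.68 (SE 0.26, adjusted p = 0.00987), with a 95% interval of 1.08 to 2.28, and it passed without any 1 of the 8 libraries. The wild-type and labelled-knockout values behind it are those given above, lower under the knockout label in A549 and higher in H2023. DNAJB9, at 1.23 (SE 0.32, adjusted p = 0.0535), HERPUD1, at 1.36 (SE 0.47, adjusted p = 0.115), ERN1, at 1.09 (SE 0.46, adjusted p = 0.186), and UGGT1, at -0.92 (SE 0.27, adjusted p = 0.0776), did not pass. In normal culture DNAJB11 passed, at 0.76 (SE 0.13, adjusted p = 0.0131). It was lower in A549 and stood at 103 and 115 TPM in wild-type and 103 and 114 TPM in labelled-knockout H2023, where the groups overlapped. CREB3L2 passed at -1.16 (SE 0.24, adjusted p = 0.0233), higher under the knockout label in A549 and lower in H2023, and PPP1R15B at -1.0 (SE 0.22, adjusted p = 0.0284), with A549 libraries of 25.5 and 21.4 and 22.3 and 29.2 TPM that overlapped. UGGT1, at -0.72 (SE 0.25, adjusted p = 0.0985), and ERN1, at 0.73 (SE 0.31, adjusted p = 0.159), did not pass. CREB3L2 lost its call without any 1 of 6 of the 8 libraries, at -1.22 to -0.95, PPP1R15B likewise without 1 of 6, at -1.12 to -0.81, and DNAJB11 without H2023 labelled-knockout library 2, at 0.69.

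Other genes of the same pathways were taken from lists of 70 genes, 69 of them in the tables, written with earlier results of these data known. In the culture contrast 35 of the 69 rose and 3 fell in wild-type A549 and 27 rose and 3 fell in its labelled-knockout libraries, against 5 and 6 and then 7 and 3 in H2023. Of all genes, 19% rose and 21.6% fell in wild-type A549 and 10.9% rose and 9.87% fell in labelled-knockout A549. In H2023 3.96% of all genes rose and 17.4% fell in wild-type libraries, and 7.68% rose and 19.2% fell in labelled-knockout libraries. The translocation and transport genes moved most uniformly, with 13 and 12 of 18 higher in A549 and none lower. SSR4, a further subunit of the translocon-associated complex, measured 266 and 217 TPM in normal and 602 and 495 TPM in oncosphere culture of labelled-knockout A549, a log2 fold change of 1.18 (SE 0.15, adjusted p = 0.00164). It measured 125 and 145 TPM in normal and 191 and 288 TPM in oncosphere culture of wild-type H2023, a log2 fold change of 0.79 (SE 0.21, adjusted p = 0.0403), and 110.3 and 115 against 215 and 266 TPM in the labelled-knockout libraries, a change of 1.08 (SE 0.21, adjusted p = 0.0122). KDELR3, a receptor that returns ER proteins from the Golgi, rose from 9.15 and 9.86 to 32.5 and 60.04 TPM in wild-type A549, by 2.11 (SE 0.26, adjusted p = 0.000573). UFD1, the VCP cofactor that binds ubiquitin, fell from 85.7 and 84.9 to 46.6 and 46.3 TPM in wild-type A549, by -0.86 (SE 0.14, adjusted p = 0.00175), and from 94.5 and 101 to 44.8 and 46.5 TPM in wild-type H2023, by -1.08 (SE 0.09, adjusted p = 0.00221). NPLOC4, its partner in that cofactor, fell in wild-type A549, from 74.6 and 65.03 to 47.4 and 53.4 TPM, by -0.46 (SE 0.11, adjusted p = 0.0127).

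CREB3L1, an ER-anchored transcription factor related to CREB3L2, had the largest change of any gene in these lists. It measured 0.300 and 0.0400 TPM in normal and 11.3 and 6.97 TPM in oncosphere culture of wild-type A549, a log2 fold change of 3.09 (SE 0.24, adjusted p = 8.31e-05). In labelled-knockout A549 it measured 1.20 and 0.920 TPM in normal and 0.400 and 0.310 TPM in oncosphere culture, so that the labelled-knockout libraries were higher in normal culture, by 0.82 (SE 0.16, adjusted p = 0.0409), and lower in oncospheres, by -2.87 (SE 0.26, adjusted p = 0.0052). The interaction between culture and label in A549 was -3.69 (SE 0.33, adjusted p = 0.00325). In H2023 it rose in both genotypes, from 2.92 and 2.58 to 14.4 and 13.3 TPM in the wild type, by 1.99 (SE 0.42, adjusted p = 0.0212), and from 1.42 and 2.00 to 7.64 and 21.3 TPM in the labelled-knockout libraries, by 2.37 (SE 0.42, adjusted p = 0.0093). These are low levels, where the log2(TPM + 1) scale understates the fold.

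Of 12 listed genes of the PERK and ATF4 arm, 6 rose and none fell in wild-type A549 oncospheres, while 3 rose and 2 fell in the labelled-knockout libraries. Of all genes, 19% rose and 21.6% fell in the wild-type contrast, and 10.9% rose and 9.87% fell in the labelled-knockout contrast. In A549 oncospheres 4 of the 12 were lower in labelled-knockout than in wild-type libraries and none was higher, where 7.2% of all genes were lower and 6.04% higher, and the median log2 fold change of the 12 was -1.13. TRIB3, a pseudokinase induced by ATF4, measured 47.4 and 53.8 TPM in normal and 301 and 204 TPM in oncosphere culture of wild-type A549, a change of 2.27 (SE 0.20, adjusted p = 0.000131), and 88.1 and 66.6 TPM in labelled-knockout oncospheres, a difference between labels of -1.68 (SE 0.23, adjusted p = 0.0129). TRIB3 also rose in the other 3 culture contrasts, by 0.92 (adjusted p = 0.0141) in labelled-knockout A549, by 1.66 (adjusted p = 0.00395) in wild-type H2023 and by 1.92 (adjusted p = 0.00144) in labelled-knockout H2023. CHAC1, which degrades glutathione, measured 32.9 and 16.8 TPM in wild-type and 4.01 and 2.19 TPM in labelled-knockout A549 oncospheres, a difference of -2.62 (SE 0.38, adjusted p = 0.0151). In H2023 oncospheres CHAC1 measured 3.92 and 4.96 TPM in wild-type and 6.33 and 5.87 TPM in labelled-knockout libraries, and TRIB3 165 and 177 against 179 and 164 TPM. The interaction, the signed H2023 difference minus the A549 difference, was 3.01 (SE 0.48, adjusted p = 0.0115) for CHAC1 and 1.68 (SE 0.29, adjusted p = 0.0142) for TRIB3. In A549 normal culture 3 of the 69 genes were higher and 4 lower under the knockout label, shares near the 4.53% and 6.28% of all genes. SEC11C, a catalytic subunit of the signal peptidase, was lowest, at 102 and 106 against 44.2 and 44.05 TPM and a change of -1.21 (SE 0.09, adjusted p = 0.00612), followed by SRPRB, a subunit of the signal recognition particle receptor, at 56.8 and 52.6 against 27.6 and 32.2 TPM and -0.85 (SE 0.12, adjusted p = 0.0193). Neither pair of groups overlapped. In H2023 none of the 69 passed in either comparison of labels.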

How the data were processed

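RNA sequencing of 16 libraries (8 groups of 2) was deposited as 4 tables, 1 per line and culture. The submitters' processing notes name HISAT2, StringTie and GRCh38; the annotation is not given in the sources used here. TPM per library was made by the authors. Per the file headers, the authors' deposited tables also hold a mean normalized count, which is a signal over 4 libraries, a log2 fold change and its error, a score (the test statistic) and p-values, under the column names DESeq2 gives. The statistic had the opposite sign to the fold change in all 73444 rows, and only the fold change was used for directions. Each table had 18361 rows; 119 identifiers filled several rows, and the first was kept, leaving 18227 genes.

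log2(TPM + 1) of all genes was fitted in limma (3.58.1, under R 4.3.3) with the trend option, and two-sided p-values were adjusted by Benjamini-Hochberg and called under 0.05. Comparisons of genotype labels used 4 libraries, culture contrasts the 8 of a line, and line interactions the 8 of a culture. Fold changes on this scale understate the change of low genes. The fits were tested on simulated data. Alternatives were a pseudocount of 0.1, a mean of at least 1 TPM, centring on library medians, omitting the 15 mitochondrially encoded genes, other library sets, a replicate block, leaving out each library, and the authors' deposited tables. The members and lists were chosen with earlier results of these data known. A member is given by library where it passed limma or was among the 5 largest absolute changes of a contrast; of other pathway genes, at most the 3 largest called in each direction were eligible to be named. PTPRC, COL1A2, DCN, VWF and CDH5 were not analysed here.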

Additional observations from a re-analysis of the deposited data

Results flagged for a closer look

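A difference between the lines in the effect of the genotype label passed limma's interaction test for 4 members. In normal culture 3 members passed (7.89% of the 38), where 6.89% of all genes were higher and 5.4% lower. In oncospheres 1 member passed (2.63%), where 5.83% of all genes were higher and 4.02% lower. For XBP1 in oncospheres, H2023 minus A549 was 1.68 (SE 0.26, adjusted p = 0.00987) on the log2 scale, from group means of 355 TPM in wild-type and 149 TPM in labelled-knockout A549 and of 200.5 and 267 TPM in H2023. For DNAJB11 in normal culture the difference was 0.76 (SE 0.13, adjusted p = 0.0131). For CREB3L2 in normal culture it was -1.16 (SE 0.24, adjusted p = 0.0233). For PPP1R15B in normal culture it was -1.0 (SE 0.22, adjusted p = 0.0284). The calls of CREB3L2 and PPP1R15B were each lost without any 1 of 6 of the 8 libraries, and that of DNAJB11 without H2023 labelled-knockout library 2, while XBP1 kept its call in every such fit.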

How the results depend on the processing

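Among the 98 named member results, 1082 recomputed values gave 0 reversals of direction, 903 on the same side of the threshold, 139 that lost their call and 40 that gained one. These results were named for passing or for their size, so reversals were unlikely from the start. The replicate block and the other library sets change the estimated spread and not the fold change, and could not reverse a direction. Counts of members called moved as follows. With the authors' deposited tables, 12 and 7 members were called between genotype labels in A549 normal and oncosphere culture and 9 and 2 in H2023. With the 8 libraries of the line, 6 were called in A549 oncospheres and 1 in H2023 normal culture. Of all genes, 1711 were higher and 1837 lower in the first and 47 and 100 in the second. With genes of at least 1 TPM, 3 were called in H2023 normal culture, 1 in the A549 culture interaction and 2 in the oncosphere line interaction. In that order, 170, 773 and 1003 of all such genes were higher and 311, 539 and 721 lower. Centring called 1 in H2023 normal culture and 14 in the labelled-knockout H2023 culture contrast. It called 71 and 2031 of all genes higher there and 175 and 2464 lower. Omitting mitochondrially encoded genes called 14 in that contrast, 1 in the A549 culture interaction and 2 in the oncosphere line interaction. In that order, 2018, 463 and 1105 of all genes were higher and 1966, 596 and 692 lower. All 16 libraries together called 13 and 9 in the labelled-knockout and wild-type H2023 culture contrasts, 1 in the A549 culture interaction and 4 in the oncosphere line interaction. In that order, 1779, 943, 1022 and 1708 of all genes were higher and 4146, 4043, 748 and 1258 lower. Leaving out a library gave 0 to 0 members in each comparison of labels, 15 to 18 and 11 to 17 in the wild-type and labelled-knockout A549 culture contrasts, 1 to 6 and 2 to 6 in those of H2023, 0 to 0 in the culture interactions, and 0 to 4 and 1 to 3 in the normal-culture and oncosphere line interactions.

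The replicate numbers of the labels were not shown to pair the libraries: over 14823 genes, deviations of same-numbered libraries correlated at 0.075, 0.131, 0.027 and 0.461. With a replicate block, 4 members were called between labels in A549 oncospheres, 1 in the A549 culture interaction, 1 in the normal-culture line interaction and 5 in the oncosphere line interaction. In that order, 1230, 646, 965 and 1633 of all genes were higher and 1544, 618, 777 and 1124 lower. In normal culture CREB3L2 and PPP1R15B lost their line interaction with the block (adjusted p = 0.0509 and 0.0644). In each culture contrast, fewer of all genes were called with a library left out than in the full fit. Apart from the fewer samples of the fits that leave out a library, the cause of each move was not tested. With a library left out, a comparison of labels had 1 residual degree of freedom, too few to decide whether a member passes. TPM gives no depth, so no limit on low values could be set; ERN1, from 2.59 TPM, is the member nearest to the pseudocount.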
